A study of Mus musculus with 12 samples.

Results

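The genotype difference produced by deleting Tgfbr2 in dendritic cells (DC) was compared between spleen and mesenteric lymph node (MLN). For each probe set, the Cre+ minus Cre- difference in spleen was subtracted from the Cre+ minus Cre- difference in MLN, so that a positive value means a more positive genotype difference in MLN. Members were the probe sets with 1 gene symbol, not assigned to chromosome X or Y, whose group mean was above 7 on the log2 scale in at least 1 group of each tissue. They numbered 6947 of the 23332 probe sets of the array table and stood for 6900 genes. The values were read from 12 Affymetrix Mouse Exon 1.0 ST arrays with 3 arrays in each of 4 groups, all on a C57BL/6 background and untreated. Spleen Cre- and spleen Cre+ samples were CD11c+ cells taken by magnetic sorting, and MLN Cre- and MLN Cre+ samples were flow-sorted CD11c+CD103+ cells, each pooled from 4 mice. Tissue, sorting method and sorted cell population therefore cannot be told apart. A difference between tissues below stands for all of them together. Cre+ mice carried the deletion of Tgfbr2, described as specific to DC, and Cre- mice were the controls. The Cre driver, the deleted exons, the ages of the mice and the number of mice behind a spleen sample are not stated in the labels. The cell type field of MLN Cre+ samples speaks of Cre- animals, and their title, source and genotype were followed instead.

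Tgfbr2 encodes the receptor chain that binds TGF-beta and then recruits and activates the partner chain Tgfbr1, after which Smad2 and Smad3 are phosphorylated and enter the nucleus with Smad4. In the immune system TGF-beta is known mainly as a restraint on activation. Splenic CD11c+ cells are largely resident conventional DC, but CD11c is also carried by some macrophages, monocytes and natural killer (NK) cells, whereas CD103+ DC of the MLN include the migratory cells that bring antigen from the gut wall. In such bulk samples, fewer cells of a type and less RNA per cell cannot be told apart.

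The targeted gene lay close to its control level in both tissues. Tgfbr2 measured 10.91, 10.94 and 10.96 on the spleen Cre- arrays and 10.66, 10.72 and 10.71 on the spleen Cre+ arrays, against 9.55, 9.67 and 9.53 on the MLN Cre- arrays and 9.51, 9.37 and 9.51 on the MLN Cre+ arrays. Every Cre+ value was the lower one, without overlap, and the difference between tissues was 0.12 (SE 0.106, 95% interval -0.11 to 0.36, adjusted p = 0.68). Probes outside the deleted part enter a gene-level value, so it does not measure the deletion. The 9 core conventional DC genes that were measured, such as Flt3 and Zbtb46, were all members.

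The arrays differed in ways that touch every value below, and the causes were not tested. Each difference between tissues subtracts log2 differences from arrays of unlike spread. Medians of single arrays were 7.03 to 7.08 for spleen against 6.74 to 6.89 for MLN, and their SDs were 2.37 to 2.42 for spleen against 1.80 to 1.91 for MLN, so levels are not compared between tissues. The median genotype difference of the members was 0.05 in spleen and 0.16 in MLN, and quantile normalization over all arrays moved them to 0.01 and 0.02. The Y-linked gene Eif2s3y averaged 9.91 in spleen Cre- and 3.17 in spleen Cre+ cells but 7.42 and 7.60 in the MLN groups, so sex and genotype cannot be told apart in spleen, and every difference between tissues contains that contrast.

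For few members did the genotype difference itself differ between tissues. The difference between tissues passed an adjusted p under 0.05 for 7 members, all of them positive and none negative, against 0.163% of all probe sets called in either direction and 0.137% called positive. The 7 are 0.101% of the members, which is not above that background. At an unadjusted p under 0.05 stood 825 members, 680 of them positive and 145 negative, which is 11.9% of the members beside 12.2% of all probe sets. The split of the calls was 7 positive and 1 negative after quantile normalization, and the unadjusted split became 440 positive and 405 negative, so the excess of positive differences depends on the scaling.

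The 7 genes were Dmpk, Axl, Fcna, Adgre1, Igf1, Cdc14b and Entpd1. All 7 had lower values in Cre+ than Cre- spleen cells and a positive estimate in MLN. A negative spleen and a positive MLN estimate were also found in 2274 of all 6947 members. Selection on a positive difference favours that form. It was shared by 613 of the 680 members with a positive difference at an unadjusted p under 0.05. No overlap between genotypes in either tissue was seen for 5 of them (Adgre1, Axl, Entpd1, Fcna and Igf1), and for 515 of all 6947 members. Of the 7, 5 were also called in spleen, 1 (Adgre1) in MLN, and 1 (Entpd1) in neither tissue taken alone. Dmpk, Fcna and Igf1 were members only because their MLN Cre+ mean lay above 7 while their MLN Cre- mean did not, as was the case for 306 of all 6947 members. The level rule thus fixed the positive sign of their MLN estimates in advance.

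**Figure D1:**
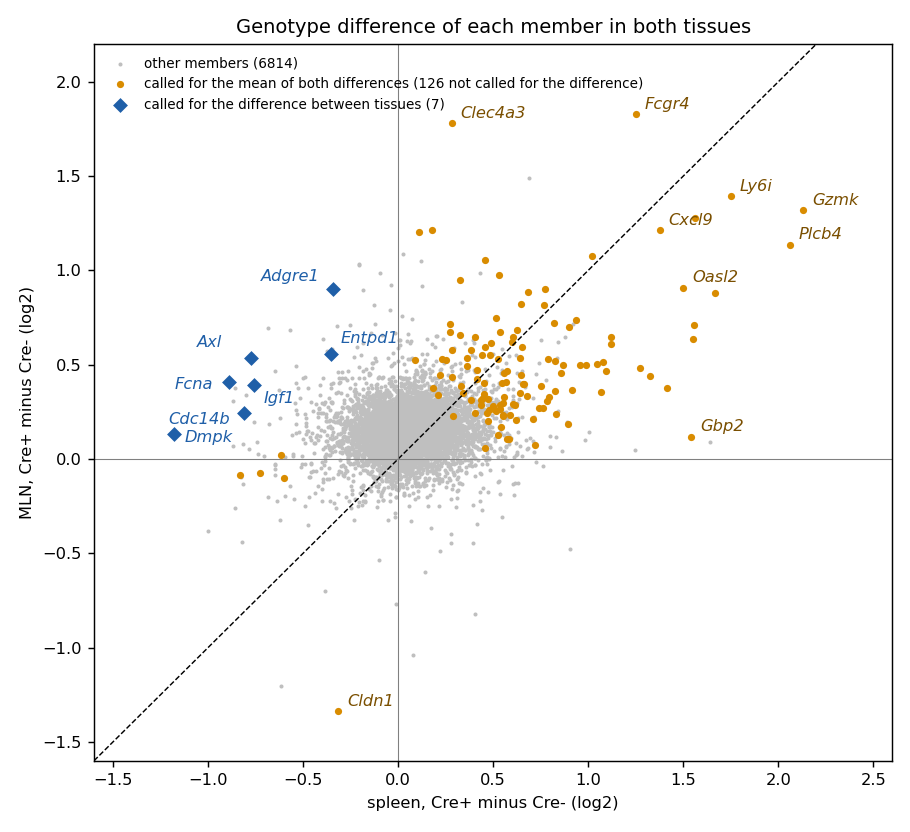
Each point is a member, placed by its Cre+ minus Cre- difference in spleen (x axis, log2) and in MLN (y axis, log2), and points on the dashed diagonal have equal differences in both. The 7 genes called for the difference between tissues (diamonds) lie at the upper left with a negative spleen and a positive MLN value, and the genes called for the mean of both differences (circles) lie mostly at the upper right.

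Of the 7 called genes, 3 (Adgre1, Axl and Fcna) are in the list of tissue macrophage genes and 4 are not. Adgre1 encodes the adhesion receptor that is the classical surface marker of mouse macrophages. It measured 11.42, 11.31 and 11.11 in spleen Cre-, 11.08, 11.02 and 10.73 in spleen Cre+, 7.32, 7.47 and 7.67 in MLN Cre-, and 8.30, 8.51 and 8.37 in MLN Cre+ samples. The Cre+ arrays were thus the low ones in spleen and the high ones in MLN, with no overlap in either. The spleen difference was -0.34 (adjusted p = 0.215), the MLN difference was 0.90 (adjusted p = 0.0332), a 1.87-fold rise, and their difference was 1.24 (SE 0.182, adjusted p = 0.0352).

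Axl encodes a receptor tyrosine kinase that recognises dying cells through the bridging protein Gas6 and dampens inflammatory signalling. Its values were 12.51, 12.16 and 12.04 in spleen Cre-, 11.42, 11.57 and 11.40 in spleen Cre+, 7.98, 8.28 and 8.35 in MLN Cre-, and 8.56, 8.70 and 8.95 in MLN Cre+ samples. Here too the groups separated in opposite directions. Axl fell in spleen to 0.584 times control (log2 difference -0.78, adjusted p = 0.0275), measured 0.53 higher in MLN (adjusted p = 0.271), and had a difference between tissues of 1.31 (SE 0.21, adjusted p = 0.0452).

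Fcna encodes ficolin A, a secreted lectin that can start the lectin pathway of complement. It measured 11.20, 10.88 and 10.70 in spleen Cre-, 10.24, 9.998 and 9.87 in spleen Cre+, 6.72, 6.63 and 6.88 in MLN Cre-, and 7.03, 7.28 and 7.15 in MLN Cre+ samples. The lowest spleen control exceeded the highest spleen Cre+ value, and the reverse held in MLN. Fcna fell in spleen by 0.89 on the log2 scale (adjusted p = 0.0145), while the MLN difference was 0.41 (adjusted p = 0.359) and the difference between tissues 1.30 (SE 0.202, adjusted p = 0.044).

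The growth factor gene Igf1 had the same form. It measured 10.41, 10.08 and 9.91 in spleen Cre-, 9.36, 9.43 and 9.35 in spleen Cre+, 6.65, 6.62 and 6.86 in MLN Cre-, and 6.95, 7.14 and 7.22 in MLN Cre+ samples. The spleen fall of 0.76 was called (log2 difference -0.76, adjusted p = 0.0183), the MLN difference was 0.39 (adjusted p = 0.344), and the difference between tissues was 1.15 (SE 0.183, adjusted p = 0.0452). The groups did not overlap in either tissue.

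Entpd1 encodes CD39, the ectoenzyme that breaks down extracellular ATP and ADP. It measured 11.25, 11.25 and 11.05 in spleen Cre-, 10.83, 10.77 and 10.90 in spleen Cre+, 8.04, 8.03 and 8.202 in MLN Cre-, and 8.52, 8.80 and 8.62 in MLN Cre+ samples. Neither tissue passed alone (spleen -0.35, adjusted p = 0.102; MLN 0.56, adjusted p = 0.0856), yet the groups separated in both, in opposite directions. The difference between tissues was 0.91 (SE 0.139, adjusted p = 0.044).

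Dmpk and Cdc14b differed between tissues mainly through spleen. Dmpk, which encodes a serine/threonine kinase, measured 9.47, 9.35 and 9.06 in spleen Cre-, 8.15, 8.32 and 7.85 in spleen Cre+, 6.97, 6.91 and 7.02 in MLN Cre-, and 7.01, 7.09 and 7.19 in MLN Cre+ samples. It fell in spleen to 0.441 times control (adjusted p = 0.00374), the MLN groups overlapped, and the difference between tissues was 1.31 (SE 0.189, adjusted p = 0.0352). The phosphatase gene Cdc14b measured 7.97, 7.86 and 8.09 in spleen Cre-, 7.15, 7.15 and 7.18 in spleen Cre+, 7.35, 7.19 and 7.42 in MLN Cre-, and 7.42, 7.44 and 7.83 in MLN Cre+ samples. Its spleen fall was called (-0.81, adjusted p = 0.01), its MLN groups touched, and the difference between tissues was 1.05 (SE 0.168, adjusted p = 0.0452).

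**Figure D2:**
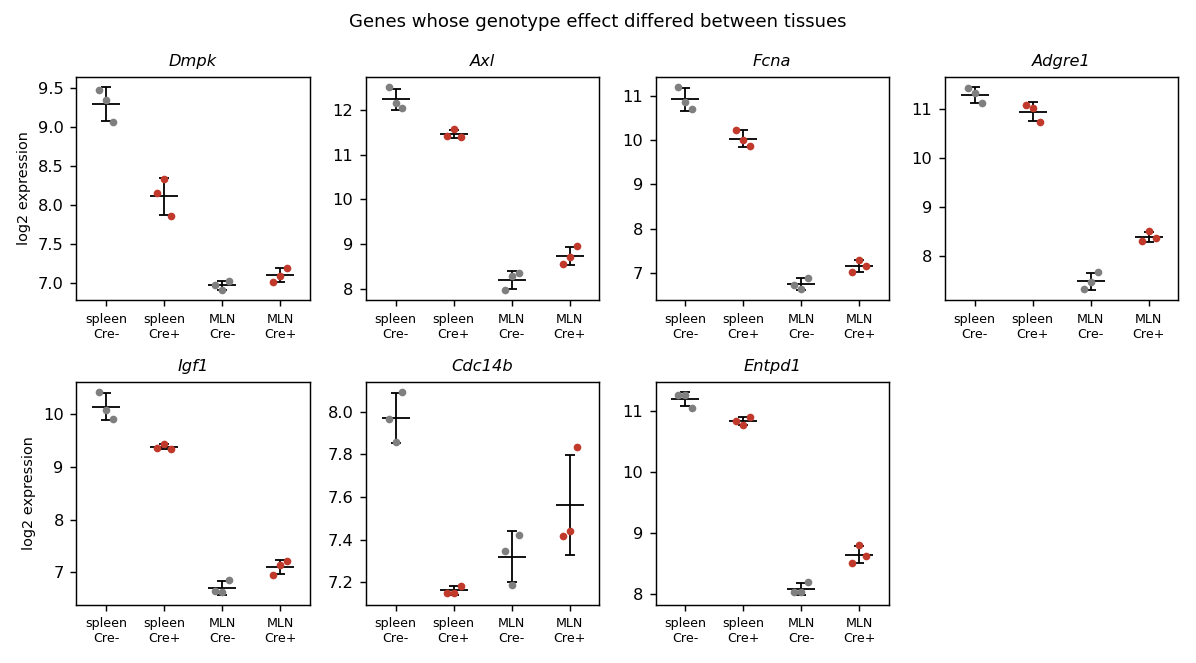
Log2 expression of the 7 called genes on every array (points), with the group mean and SD (bars, n = 3 arrays). In each panel the Cre+ points lie below the Cre- points in spleen, and in MLN they lie above them or, for Dmpk and Cdc14b, overlap them. The y axes differ between panels and do not start at 0.

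These calls stood near the threshold. The 7 genes kept their sign in all 21 or 22 alternative settings, but each was called in only 7 to 12 of them, with adjusted p-values of 0.00469 to 0.142. No member was called when any 1 of 7 arrays was left out (spleen Cre- 1 and 2, MLN Cre- 1 and 2, and MLN Cre+ 1, 2 and 3), when 537 to 786 members still had an unadjusted p under 0.05, and 1, 3 or 4 were called without spleen Cre+ 2, without spleen Cre+ 3, and without spleen Cre+ 1 or MLN Cre- 3.

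Most genes of the macrophage list had a positive difference between tissues. Of its 26 measured genes 16 were members, and 15 of these had a positive difference between tissues, with a median of 0.74 beside 0.10 over all members; 3 were called (Adgre1, Axl and Fcna) and none was called negative. Over all 26 measured genes the median was 0.76. Of the 13 members not called, 12 were positive and 8 had an unadjusted p under 0.05. Spic, the transcription factor of red pulp macrophages, differed by 1.08 (adjusted p = 0.125), Cd5l, a protein secreted by tissue macrophages, by 1.06 (adjusted p = 0.16), and the divalent metal transporter gene Slc11a1 by 0.96 (adjusted p = 0.138). The complement genes C1qa, C1qb and C1qc differed by 0.55, 0.58 and 0.72, and the apolipoprotein gene Apoe by -0.01, none of them called. Spic, Cd5l, Slc11a1 and the C1q and Apoe genes are named here after their values were seen.

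The summed level of the 26 macrophage genes, on the log2 scale, was 15.44 to 15.80 in spleen Cre- and 15.21 to 15.30 in spleen Cre+ arrays, and 12.37 to 12.76 in MLN Cre- and 12.76 to 12.94 in MLN Cre+ arrays. The marker sum thus moved the same way as the called genes, without overlap in spleen and with a narrow overlap in MLN. It contains the called Adgre1, Axl and Fcna, so this was in part fixed in advance and adds no separate evidence. Whether a different share of macrophages in the isolates took part in the result was not tested. Outside the members, the macrophage genes Mertk and Cd163 were also called (difference 1.43, adjusted p = 0.0221, and 1.404, adjusted p = 0.0186), but neither reached a mean of 7 in any MLN group. Itga9, also in the list and not a member, was called too (difference 1.29, adjusted p = 0.04955).

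Monocyte genes were called in both tissues but not for the difference between tissues. Among the members, 3 were called as rises in MLN (Clec4a1, Clec4a3 and Fcgr4), 2 in spleen (Fcgr4 and Ly6i) and 4 for the mean of both. Of all probe sets, 0.0857% were called in MLN and 2.17% in spleen in either direction, and 1.02% as rises of the mean. The monocyte list had 10 members of 16 measured genes, 8 of them positive (70.1% of all members were) with a median difference of 0.35. None was called for the difference. Over all 16 measured genes the median was 0.19. Clec4a1, Clec4a3 and Fcgr4 were members only through their MLN Cre+ mean. The level rule thus admitted each monocyte gene called in MLN through the group where it was high, and nothing is read from their number. Clec4a3, a C-type lectin gene, measured 10.07, 10.02 and 9.88 in spleen Cre-, 10.50, 10.42 and 9.89 in spleen Cre+, 7.003, 6.61 and 7.15 in MLN Cre-, and 9.08, 8.64 and 8.39 in MLN Cre+ samples. The MLN groups were well separated and the spleen groups overlapped. Clec4a3 rose in MLN by 1.78 (adjusted p = 0.0186), with a difference between tissues (SE 0.297, 95% interval 0.84 to 2.16) that was not called (adjusted p = 0.0915). For Csf1r, the receptor for the macrophage growth factor Csf1, the difference between tissues was 1.23 (adjusted p = 0.0815), from -0.21 in spleen and 1.03 in MLN.

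Other genes came close to the threshold with a positive difference. Lrp1, an endocytic receptor that also takes up dying cells, measured 10.91, 10.81 and 10.58 in spleen Cre-, 10.37, 10.22 and 9.66 in spleen Cre+, 6.81, 6.92 and 7.003 in MLN Cre-, and 7.54, 7.53 and 7.74 in MLN Cre+ samples. Its groups separated in opposite directions, and its difference of 1.38 exceeded that of each called gene but had a larger error (SE 0.234, adjusted p = 0.0530). The other positive differences closest to the threshold were those of the calcium pump gene Atp2b4 (0.93), the sorting nexin gene Snx25 (0.73), Tex2 (0.67), Lag3, an inhibitory receptor that binds MHC class II (0.96), Gas7 (0.99), Tmem26 (0.87), the growth factor gene Vegfa (0.64) and the transcription factor gene Zeb2 (0.73), with adjusted p-values from 0.0528 to 0.0831. Of these, Vegfa had an MLN difference of only 0.02 beside a spleen fall of 0.61 (adjusted p = 0.00852). Lrp1, Atp2b4 and Gas7 were members only because their MLN Cre+ mean lay above 7 while their MLN Cre- mean did not.

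In the negative direction no member was called, although 145 had an unadjusted p under 0.05. The largest of the named differences was that of Gbp2, an interferon-induced GTPase, which measured 8.81, 8.58 and 8.47 in spleen Cre-, 10.54, 10.30 and 9.64 in spleen Cre+, 9.63, 9.57 and 10.19 in MLN Cre-, and 9.68, 9.83 and 10.24 in MLN Cre+ samples. Gbp2 rose in spleen 2.91-fold (adjusted p = 0.0143), the MLN groups overlapped, and the difference between tissues was -1.42 (SE 0.347, adjusted p = 0.149). Cdca8, a subunit of the chromosomal passenger complex of mitosis, had the lowest adjusted p of this direction (0.0831), with a difference of -0.65. It rose in spleen by 0.72 (adjusted p = 0.00479) and measured 0.07 higher in MLN (adjusted p = 0.746). The other genes by p were Ddt (-0.74), Car2 (-0.72), Aimp2 (-0.60), Bckdk (-0.47), Guk1 (-0.43) and Bora (-0.40), beside Cldn1 and Plcb4 described below, with adjusted p-values from 0.105 to 0.185.

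**Figure D3:**
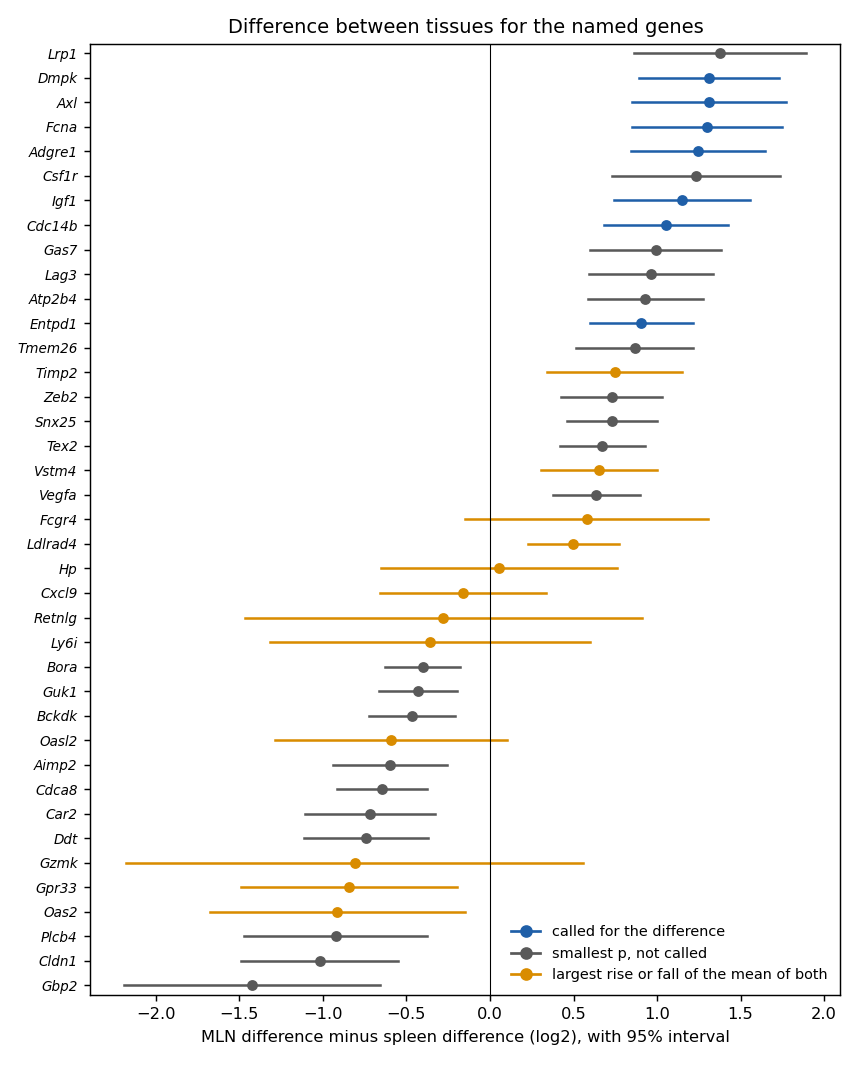
Difference between tissues (MLN difference minus spleen difference, log2) with its 95% interval for the called genes, for the genes of smallest p that were not called, and for the genes with the largest rise or fall of the mean of both differences. Lrp1 has the largest estimate and Gbp2 the most negative, and the intervals of Gzmk and Retnlg are the widest.

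The mean of both differences has a smaller error than their difference (median SE 0.0787 against 0.157), so the numbers of calls for the 2 are not compared. The mean of both differences was called for 127 members, 121 of them rises and 6 falls, against 1.26% of all probe sets called in either direction, 1.02% as rises and 0.231% as falls. The rises are 1.74% of the members, but the level rule itself admits genes that are high in Cre+ cells: 26 of the 121 were members only through their MLN Cre+ mean and 5 only through their spleen Cre+ mean, against 306 and 73 of all members, so nothing is read from that share. All 121 were higher in Cre+ cells in both tissues, and 87 had no overlap between genotypes in either. Of all 6947 members, 362 separated upward in both. Only 4 of the 121 were called in each tissue taken alone. The split was 56 rises and 20 falls after quantile normalization, 76 and 16 after scaling arrays to 1 SD, and 113 and 14 after a shift to 1 median. Leaving out 1 array gave 389 calls without MLN Cre- 3, 142 without spleen Cre- 3, 110 without spleen Cre+ 3 and 28 (without MLN Cre- 2) to 74 (without spleen Cre+ 1) without each of the others.

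Cxcl9, a chemokine that draws T cells through Cxcr3, rose by much the same amount in both tissues. It measured 9.85, 9.71 and 10.05 in spleen Cre-, 11.27, 11.49 and 10.98 in spleen Cre+, 8.39, 8.13 and 8.41 in MLN Cre-, and 9.38, 9.40 and 9.79 in MLN Cre+ samples. It rose 2.595-fold in spleen (adjusted p = 0.00398) and 2.32-fold in MLN (adjusted p = 0.0289), without overlap. The mean of both was 1.29 (SE 0.112, adjusted p = 0.00112) and the difference between tissues -0.16, with a 95% interval from -0.66 to 0.33 that leaves room for either sign.

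Plcb4, a phospholipase C, had the smallest p for the mean among the named genes. Its values were 7.47, 6.83 and 7.14 in spleen Cre-, 9.40, 9.23 and 8.98 in spleen Cre+, 6.63, 6.47 and 6.58 in MLN Cre-, and 7.47, 7.64 and 7.97 in MLN Cre+ samples. The mean rose by 1.60 (adjusted p = 0.000617), or 3.03-fold, with no overlap in either tissue. The rise was 2.06 in spleen and 1.14 in MLN (adjusted p = 0.0579 in MLN), and the difference between them of -0.92 was not called (SE 0.249, adjusted p = 0.185).

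Fcgr4, an activating receptor for IgG, was at 10.77, 10.83 and 10.56 in spleen Cre-, 12.24, 11.88 and 11.79 in spleen Cre+, 5.88, 6.41 and 6.50 in MLN Cre-, and 8.45, 8.25 and 7.57 in MLN Cre+ samples. It rose in spleen (1.25, adjusted p = 0.0243) and in MLN (1.83, adjusted p = 0.0253), and the difference between tissues was 0.58 with a 95% interval from -0.15 to 1.30. The other large rises of the mean were those of granzyme K (Gzmk, 1.72), Ly6i (1.57), the resistin-like gene Retnlg (1.42), Oasl2 (1.20), the chemoattractant-receptor-like gene Gpr33 (1.13), Oas2 (1.09) and haptoglobin (Hp, 1.05). Fcgr4, Plcb4, Gzmk, Retnlg and Hp passed the level rule in MLN only through their Cre+ mean, and Gzmk and Gpr33 did so in spleen. The rule thus admitted these genes through the group where they were high. Gzmk varied widely within a group, at 6.35, 8.32 and 8.53 in spleen Cre+ against 5.59, 5.59 and 5.62 in spleen Cre- samples, and its interval for the difference ran from -2.18 to 0.56. Cxcl9, Gbp7, Fcgr4 and Fcgr3, another receptor for IgG, were the 4 members called in both tissues.

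**Figure D4:**
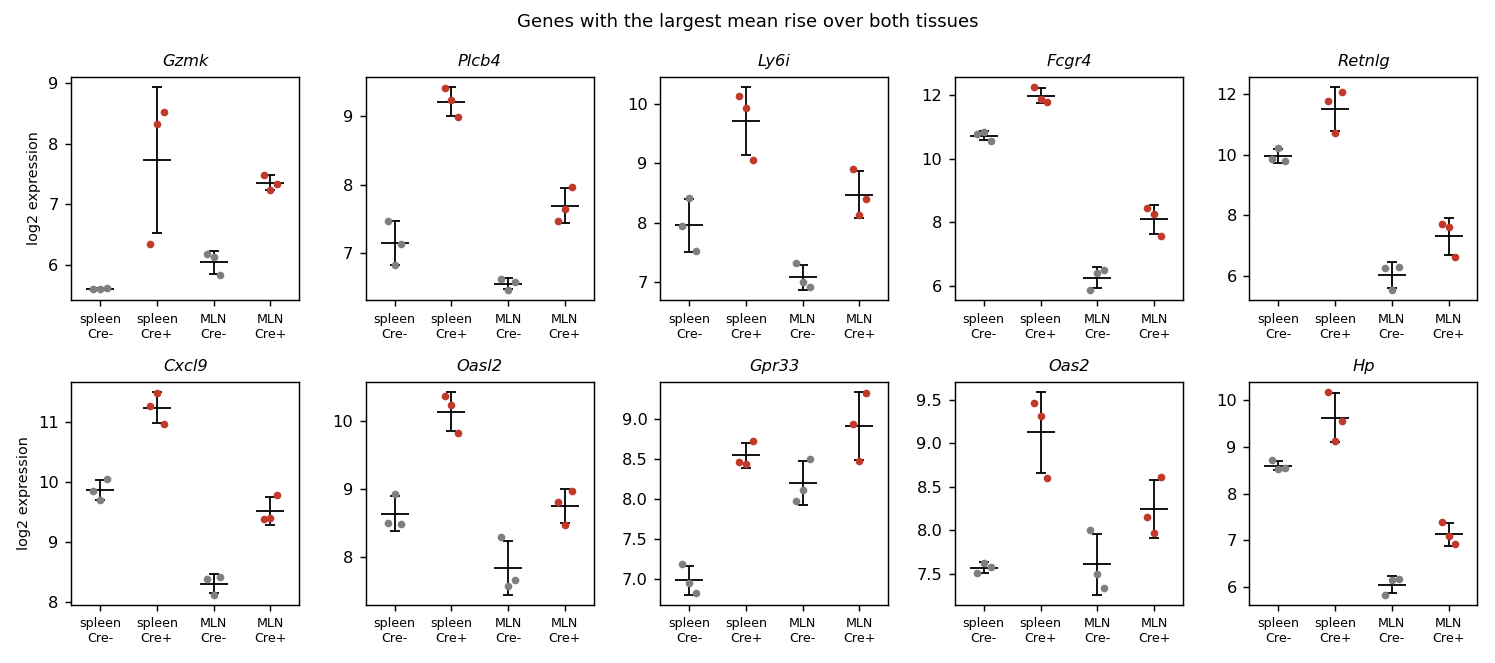
Log2 expression on every array (points) with the group mean and SD (bars, n = 3 arrays) for the 10 genes with the largest called rise of the mean of both differences. The Cre+ points lie above the Cre- points in both tissues for most panels, with an overlap in MLN for Gpr33 and Oas2. The y axes differ between panels and do not start at 0.

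Interferon-induced genes were called mainly as rises of the mean. Of 25 members of the list of type I interferon-induced genes, 14 were called as rises of the mean and none as a fall, and the median of the mean was 0.49 beside 0.10 over all members. In spleen 11 rose and 1 fell (Bst2, adjusted p = 0.027), and in MLN none was called. For 23 the estimate was above 0 in both tissues, as it was for 4036 of all 6947 members. Of all probe sets, 1.02% were called as rises of the mean. In either direction 2.17% were called in spleen and 0.0857% in MLN. The list of interferon-gamma-induced genes had 8 of 11 members called as rises of the mean, with a median of 0.77; 6 rose in spleen and 2 (Cxcl9 and Gbp7) in MLN. No member of either list was called for the difference between tissues, and the medians of that difference were -0.22 for the first, with 19 of 25 negative, and -0.10 for the second.

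Irgm1, a GTPase of the defence against intracellular pathogens, measured 8.42, 8.66 and 8.75 in spleen Cre-, 9.95, 9.79 and 9.45 in spleen Cre+, 8.17, 8.07 and 7.95 in MLN Cre-, and 8.79, 8.62 and 8.60 in MLN Cre+ samples. Its mean rose by 0.86 (adjusted p = 0.00435) with no overlap in either tissue. Ifit1, which binds foreign RNA, measured 7.78, 7.38 and 7.495 in spleen Cre-, 8.996, 9.005 and 8.89 in spleen Cre+, 8.42, 7.57 and 7.30 in MLN Cre-, and 7.98, 8.09 and 8.36 in MLN Cre+ samples. The MLN groups of Ifit1 overlapped because 1 control pool was high, and its mean rose by 0.90 (adjusted p = 0.0367) while its difference of -1.04 was not called (adjusted p = 0.261).

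Promoter sequence was set beside these groups, since the genes that rose in both tissues and those that differed between tissues could be compared letter by letter. The 250 bases before the start of each gene were taken from RefSeq (GRCm38.p6) and searched on both strands for the letters GAAANNGAA, which resemble the interferon-stimulated response element, and TTCNNNGAA, the core of the gamma-activated site. The first was found in 19 of the 97 genes called as rises that had a promoter in the table (19.6%), against 6.2% of the members and 7.2% of all 27025 promoters, and the second in 11.3%, against 6.0% and 7.2%. Further motifs were the Smad palindrome GTCTAGAC (0.2% of all promoters), the Smad box CAGACA (17.1%) and the ETS letters GAGGAAGT (2.4%), found in 0.0%, 15.5% and 4.1% of the rises. In all, 0 of the 6 genes called for the difference that had a promoter held any of the 5 motifs. A match is not a binding site, and 6 promoters allow no comparison of shares. The following 4 promoters belong to genes called as rises and were picked because they hold a match, to show what the letters look like. Capitals mark the response element in all 4 and the gamma-activated site in Gbp7, and Smad box matches are left in lower case. They are read 5' to 3' on the strand of the gene and ending at the base before its start, at chr5:92328080-92328329 (minus strand) for Cxcl9, chr11:48871421-48871670 (minus strand) for Irgm1, chr19:34640639-34640888 (plus strand) for Ifit1 and chr3:142530086-142530335 (plus strand) for Gbp7.
Cxcl9: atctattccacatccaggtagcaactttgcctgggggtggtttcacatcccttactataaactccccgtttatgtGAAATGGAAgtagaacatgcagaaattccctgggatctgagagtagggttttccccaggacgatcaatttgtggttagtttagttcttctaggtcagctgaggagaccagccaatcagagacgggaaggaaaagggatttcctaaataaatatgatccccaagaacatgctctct
Irgm1: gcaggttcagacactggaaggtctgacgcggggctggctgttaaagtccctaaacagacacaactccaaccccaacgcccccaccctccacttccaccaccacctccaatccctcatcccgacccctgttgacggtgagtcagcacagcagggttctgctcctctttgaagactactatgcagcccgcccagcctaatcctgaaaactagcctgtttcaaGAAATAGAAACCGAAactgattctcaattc
Ifit1: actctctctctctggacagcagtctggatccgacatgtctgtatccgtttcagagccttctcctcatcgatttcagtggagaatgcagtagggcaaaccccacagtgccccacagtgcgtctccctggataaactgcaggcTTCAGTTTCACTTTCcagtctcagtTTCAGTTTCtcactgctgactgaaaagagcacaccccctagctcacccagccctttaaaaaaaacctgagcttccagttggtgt
Gbp7: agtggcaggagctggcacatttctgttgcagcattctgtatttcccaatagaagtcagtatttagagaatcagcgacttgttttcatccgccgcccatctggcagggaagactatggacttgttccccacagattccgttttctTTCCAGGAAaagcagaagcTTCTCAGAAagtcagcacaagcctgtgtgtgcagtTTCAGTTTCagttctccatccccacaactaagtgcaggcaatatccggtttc
The single match of Cxcl9 lies 175 to 167 bases before the start. Irgm1 holds 2 overlapping matches between 30 and 16 bases before it, and Ifit1 holds 3 on the opposite strand, of which 2 overlap. Gbp7 holds 2 gamma-activated sites, whose letters match on both strands, and 1 response element. The windows of Axl (chr7:25788734-25788983, minus strand) and Igf1 (chr10:87860861-87861110, plus strand), called for the difference, hold none of the 5 motifs. That does not set them apart, since most called rises lack the letters too, among them Oasl2, whose window holds none of the 5 either.
Axl: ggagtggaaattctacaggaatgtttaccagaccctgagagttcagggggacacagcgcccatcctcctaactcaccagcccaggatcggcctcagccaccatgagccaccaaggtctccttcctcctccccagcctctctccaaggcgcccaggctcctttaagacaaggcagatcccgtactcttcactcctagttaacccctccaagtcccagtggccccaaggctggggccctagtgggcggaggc
Igf1: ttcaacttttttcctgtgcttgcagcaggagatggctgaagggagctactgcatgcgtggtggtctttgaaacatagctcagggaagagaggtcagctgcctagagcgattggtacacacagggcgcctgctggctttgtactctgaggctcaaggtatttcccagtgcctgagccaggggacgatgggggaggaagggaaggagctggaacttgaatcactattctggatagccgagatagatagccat

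Some cell cycle genes rose in spleen and none was called in MLN. Of the 25 proliferation members 8 rose in spleen and 7 on the mean of both. Of all probe sets, 2.17% were called in spleen in either direction and 1.02% as rises of the mean. All 25 estimates were above 0 in both tissues, as were those of 4036 of all 6947 members. In MLN alone 90.8% of all members were above 0. In spleen 23 separated upward, but in MLN 4 did. Of all 6947 members, 2066 separated in spleen and 1575 in MLN, in either direction. The median was 0.58 in spleen and 0.31 in MLN, beside 0.05 and 0.16 over all members. Ccnb2, a cyclin of mitosis, measured 9.81, 9.94 and 9.45 in spleen Cre-, 10.43, 10.68 and 10.58 in spleen Cre+, 8.33, 8.54 and 8.76 in MLN Cre-, and 8.73, 8.89 and 8.73 in MLN Cre+ samples. The spleen groups separated and the MLN groups overlapped. The difference between tissues was negative for 24 of the 25 with a median of -0.24, but none was called, and the named Ccnb2, Bub1 and Kif20a stood at -0.59, -0.46 and -0.49 (adjusted p = 0.287, 0.359 and 0.319).

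Markers of other cell types that the isolates could hold moved to differing degrees. Of the 12 plasmacytoid DC members, 3 fell in spleen (Bst2, Ccr9 and Cd300c) and none was called in MLN; 10 of the 12 had a positive difference between tissues, with a median of 0.41, while 70.1% of all members were positive. The NK and cytotoxic list had 10 of 12 positive and a median of 0.53, against 0.39 over all 14 measured genes. Its members Ncr1 and Gzmk passed the level rule in MLN only through their Cre+ means. Tbx21, the transcription factor T-bet, stood at 0.07 in spleen and 0.74 in MLN, with a difference of 0.67 (adjusted p = 0.188). Neither list had a call for the difference. Neutrophil genes could hardly be compared by the level rule, since 15 of the 20 measured were not members; over all 20 the median spleen difference was 1.33, the median MLN difference 0.18 and the median difference between tissues -0.99. Ltf, which encodes the granule protein lactoferrin and was not a member, was called in the negative direction (difference -2.23, adjusted p = 0.044), from a spleen rise of 2.29 and an MLN difference of 0.06. The summed neutrophil level was 12.79 to 13.04 in spleen Cre- and 13.72 to 14.77 in spleen Cre+ arrays, and 10.39 to 10.42 and 10.66 to 10.83 in the MLN groups.

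T cell and B cell genes showed no call for the difference, with medians of -0.21 over 12 and -0.10 over 13 members. The summed T cell level was 13.06 to 13.35 in spleen Cre- and 12.71 to 13.69 in spleen Cre+ arrays, where the Cre+ arrays lay on both sides of the controls. The genes that define conventional DC had medians of the difference of -0.03 for the 9 core genes, -0.03 for 16 genes of the cDC1 subset, 0.15 for 15 genes of the cDC2 subset and -0.04 for 14 genes of mature and migratory DC, and no call. Within these lists Irf8, the transcription factor of cDC1, separated in opposite directions, at -0.21 in spleen and 0.30 in MLN, with a difference of 0.51 that was not called (adjusted p = 0.147). The integrin gene Itgam (CD11b) rose in MLN by 0.95 (adjusted p = 0.0186) and measured 0.33 higher in spleen (adjusted p = 0.173), and the difference of 0.62 was not called (adjusted p = 0.16).

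**Figure D5:**
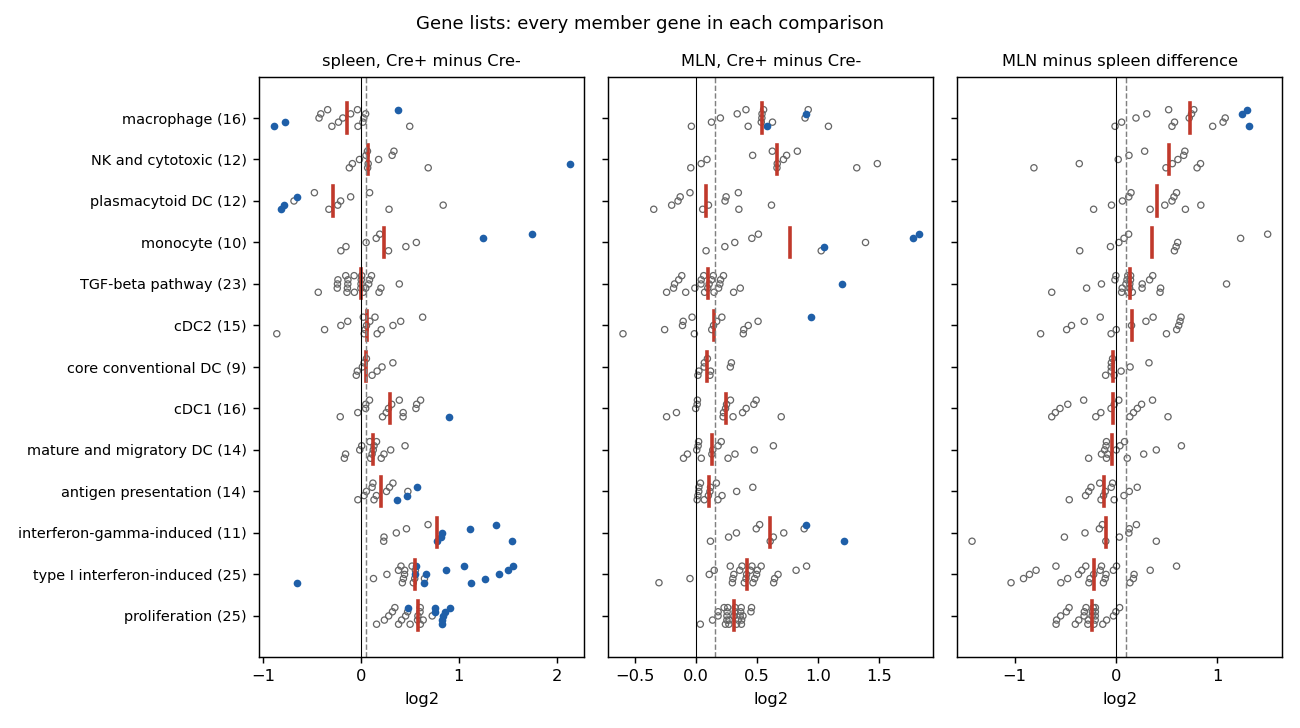
Log2 values of every member of 13 gene lists (number of members in brackets) for the spleen difference, the MLN difference and the difference between tissues. Filled points were called, open points were not, red bars are list medians and the dashed line is the median of all members. In the panel of the difference between tissues the macrophage list lies farthest to the right with a median of 0.74, and the proliferation list farthest to the left with -0.24.

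Few genes of the TGF-beta pathway were called in either tissue. Of its 32 measured genes 23 were members, none was called for the difference and the median was 0.14, close to 0.10 over all members. Tgfbi, a secreted matrix protein named for its induction by TGF-beta, was the exception in the MLN: it measured 11.81, 11.63 and 11.46 in spleen Cre-, 11.90, 11.71 and 11.61 in spleen Cre+, 7.70, 7.83 and 8.37 in MLN Cre-, and 9.25, 9.14 and 9.11 in MLN Cre+ samples. It rose 1.20 in MLN (adjusted p = 0.0321) with no overlap, the spleen groups overlapped, and the difference of 1.09 was not called (adjusted p = 0.112). The signal transducer gene Smad3 differed by 0.44 (adjusted p = 0.369) and Itgae, which encodes CD103, by -0.63 (adjusted p = 0.407). Tgfb1, Smad2 and Smad4 differed by 0.06, 0.12 and -0.01, none of them called.

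Only 4 members were called as falls of the mean with the same sign in both tissues. Cldn1, a tight junction protein, measured 7.62, 7.27 and 7.51 in spleen Cre-, 7.08, 7.26 and 7.11 in spleen Cre+, 7.07, 7.31 and 7.71 in MLN Cre-, and 6.01, 5.95 and 6.12 in MLN Cre+ samples. The groups separated in both tissues, though narrowly in spleen. Its mean fell by 0.83 (adjusted p = 0.00796), the MLN fall of 1.34 was called (adjusted p = 0.0186), and the difference of -1.02 was not (adjusted p = 0.105). For Timp2, an inhibitor of metalloproteinases, Vstm4, and Ldlrad4, a membrane protein that restrains Smad activation, the mean fell by 0.46, 0.40 and 0.35, but nearly all of it lay in spleen, with MLN differences of -0.09, -0.07 and -0.10. The other 2 of the 6 falls were Dmpk and Vegfa, whose MLN estimates were above 0.

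The spleen calls were also read out in MLN. The MLN arrays give no part of the spleen difference, but they enter the pooled variance that decides its calls. In spleen 146 members were called (2.17% of all probe sets were), 114 rises and 32 falls. Of the 114 rises, 112 were above 0 in MLN (98.2%, against 90.8% of all members). Their median MLN difference was 0.26 beside 0.16 over all members. In MLN 54 of the 114 separated upward, while 1575 of all 6947 members separated there in either direction. Leaving out 1 array changed the spleen count to between 31 (without spleen Cre+ 2) and 170, and it was 52, 53, 65, 82 and 86 without spleen Cre- 2, spleen Cre- 1, spleen Cre+ 1, MLN Cre- 2 and MLN Cre+ 2. After a shift of every array to 1 median, 100 of the 114 stayed above 0, beside 5454 of all 6947 members above 0 in MLN after that shift. Of the 32 falls, 24 were above 0 in MLN and 8 below (75% above 0, fewer than the 90.8% of all members), and 18 were above 0 after the median shift. Their median was 0.11 beside 0.16 over all members, 11 separated upward in MLN and none separated downward. Values of both differences across all 6947 members correlated with r = 0.22 (Spearman's rho = 0.12), a description over genes that are not independent and share arrays.

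In MLN 13 members were called, 12 rises and 1 fall (0.0857% of all probe sets were called). Of these, Clec4a1, Clec4a3 and Fcgr4 were members only through their MLN Cre+ mean, and Cldn1 only through its MLN Cre- mean. The number of calls is therefore not set against that share. The count was 0 or 1 without MLN Cre- 1, MLN Cre- 2 or any MLN Cre+ array, 5 and 7 without spleen Cre+ 2 and spleen Cre- 2, and 23 without MLN Cre- 3. Of the 12 rises, 11 were above 0 in spleen as well, the exception being Adgre1, and 8 separated upward in both tissues. Among them were Clec4a1, a C-type lectin gene (1.05 in MLN, 0.46 in spleen), Cd300ld (1.22 and 0.18) and Xdh, the xanthine dehydrogenase gene (0.97 and 0.53), for which the difference between tissues was not called. The median residual SD of the members was 0.107 on spleen and 0.138 on MLN arrays, and the median SE of the difference between tissues was 0.157. Over all members 371 separated in the same direction in both tissues, 362 of them upward, and 144 in opposite directions, 141 of them down in spleen and up in MLN.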

How the data were processed

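Values were used as deposited: gene-level log2 values, which the authors computed in GeneSpring by RMA, a robust average over probes, per the labels (their range gave the log2 scale). For the software version, probe annotation and build, nothing was given in the sources used here. The platform annotation gave gene names: 14996 had 1 symbol, 1019 several and 7317 none. RefSeq genes of GRCm38.p6 gave chromosomes, and 8 members without a match were kept. Just inside the level threshold of 7 lay Nme1 (7.00082) and Tnfaip8l1 (7.00133), just outside it Gbe1 (6.99985) and Slc6a12 (6.99888).

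In limma 3.58.1 (R 4.3.3), 4 group means were fitted to all 12 arrays and all 23332 probe sets, with eBayes (8 residual and 2.66 prior degrees of freedom). Contrasts were the spleen and MLN differences, their difference and their mean; they share arrays. All tests were two-sided, and every adjusted p comes from this fit, by the Benjamini-Hochberg method across the 23332 probe sets. Nothing in the labels says that arrays of 1 group came from separate animals, so p-values measure the spread between these arrays, which limits precision. The steps were tested on simulated data.

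The members and the 30 gene lists were chosen with earlier results of these data known. List genes entered through their probe set of highest mean; no set test was run. Named were Tgfbr2; genes called for the difference (at most 15 in each direction), with the overlap of their groups, and, as values not called, the 10 of smallest p in each direction; the 10 largest rises and falls of the mean of the same sign in both tissues; and 3 genes a list of smallest p for the difference. Predicted genes were left out. Others named among the calls of MLN or of a list were chosen after their values were seen. Alternatives were 3 rescalings, other level thresholds, a fit of members alone, other variance models, array weights, a replicate block and leaving out each array.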

Additional observations from a re-analysis of the deposited data

Results flagged for a closer look

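A difference between groups was tested directly, as the difference between tissues in the genotype difference, and 7 genes passed it: Dmpk (1.31), Axl (1.31), Fcna (1.30), Adgre1 (1.24), Igf1 (1.15), Cdc14b (1.05) and Entpd1 (0.91), all on the log2 scale. All 7 had a negative estimate in spleen and a positive one in MLN, a form that selection on a positive difference favours. Beside them, the summed macrophage level was 15.44 to 15.80 in spleen Cre- and 15.21 to 15.30 in spleen Cre+ arrays. That sum contains Axl, Fcna and Adgre1. The Y-linked genes separated the spleen groups alone. The part of macrophages and of sex in the result was not tested and, for sex in spleen, cannot be told apart from genotype.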

How the results depend on the processing

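The number of members called for the difference between tissues (7) was 8 after quantile normalization (5 shared with the 7), 9 after a shift to 1 median, 10 after scaling to 1 SD (6 shared) and 7 with 1 weight a tissue. It became 47 in a fit of the members alone, 16 and 3 at level thresholds of 6 and 8, 11 with a trended and robust variance, and 280 with array weights, where spleen Cre+ 2 received a weight of 6.04. For the mean of both differences (127), quantile normalization gave 76, members alone 635, a threshold of 8 gave 75 and array weights 1491. For spleen (146), scaling to 1 SD gave 83, members alone 379, thresholds of 6 and 8 gave 240 and 71, and array weights 955. For MLN (13), quantile normalization gave 22, members alone 108, a threshold of 8 gave 8 and array weights 494. The causes were not tested.

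With the replicate number as a block within a tissue, 0 members were called for the difference (1054 at an unadjusted p under 0.05), 79 for the mean, 89 in spleen and 0 in MLN (1862 unadjusted). Same-numbered arrays deviated together with r of -0.0059, 0.016 and -0.0047 in spleen and 0.33, -0.06 and 0.34 in MLN. In MLN, Cre- and Cre+ arrays of unlike number had r from -0.43 to 0.23. The titles give only a number, and the main fit did not use it. Whether same-numbered MLN arrays were pairs was not tested. Leaving out 1 array gave 0 to 10 calls for the difference, 28 (without MLN Cre- 2) to 389 (without MLN Cre- 3) for the mean, 31 (without spleen Cre+ 2) to 170 in spleen and 0 to 23 in MLN (0 without MLN Cre- 2, MLN Cre+ 1 or MLN Cre+ 2).

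Signs turned for 4 differences between tissues, none of them called: Retnlg (-0.28 as reported) to 0.047 after quantile normalization, 0.055 after scaling to 1 SD and 0.82 with array weights, and over omissions of 1 array it ran from -0.69 to 0.071 (without MLN Cre+ 3); Hp (0.05 as reported) to -0.024 after a shift to 1 median, and over omissions it ran from -0.19 (without spleen Cre+ 2) to 0.33, negative also without spleen Cre- 1, MLN Cre- 1 or MLN Cre+ 1; and, after scaling to 1 SD, Cxcl9 to 0.074 and Tgfbr2 to -0.028. The macrophage list kept 14 or 15 of 16 members positive under each rescaling, with a median of 0.57 to 0.85 over all alternatives.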
